A study of Gallus gallus with 14 samples.

Results

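The clathrin adaptor and endosomal clones described here are 3 of the 12844 clones on a chicken EST array: the clone of AP1B1 (dkfz426_15a17r1), the clone of CHMP7 (ChEST696H21) and the clone of CD63 (pat.pk0048.b9). They are the clones to which the study's list of clones that differed between DKO-R and DKO-S gives these gene names, and all 3 were found on the array by their clone names, a trailing f ignored. For the AP1B1 clone the array files give another EST accession than the list, so that its gene name rests on the clone name alone. The list was drawn up on DKO-R and DKO-S arrays of this experiment, so a difference between these lines on the same arrays is not independent evidence. RNA was compared from 3 chicken lines. In DKO-R and DKO-S both alleles that encode the clathrin heavy chain were knocked out, and the cells live on a clathrin transgene under a Tet-Off promoter, which doxycycline (DOX) represses. At the chicken serum level routinely used, repression typically kills DKO-S cells, whereas DKO-R, a variant that arose from them, survives it. DKO-R is the only survivor line on the arrays. The paper describes a quantitative difference: DKO-S cells increasingly survived repression at higher serum levels, and DKO-R cells needed less serum. DT40 is the unmodified pre-B cell line, in which DOX has no such transgene to act on. Each line was grown as cultures A and B with DOX and without it, which gives 12 extracts. For the array samples no DOX dose or length of treatment is stated. No clone is named as the clathrin heavy chain in the sources used here, so the repression itself was not checked on the arrays, and the B cell identity of the lines was not checked either because only listed clones have gene names.

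AP1B1 is the beta subunit of AP-1, the adaptor complex that binds clathrin and cargo on the trans-Golgi network and on endosomes. CHMP7 is related to the ESCRT-III proteins, which cut membrane necks when vesicles bud into late endosomes, and in mammalian cells it is best known for bringing ESCRT-III to the nuclear envelope as it closes after mitosis. CD63 is a tetraspanin of late endosomes, lysosomes and secreted vesicles that also passes through the plasma membrane and, in mammalian cells, is taken back up through a sorting signal that adaptor complexes read. Most of this is known from mammalian cells.

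Every extract was hybridised in both dyes. In 7 pairs of extracts each pair was put on 2 arrays with Cy3 and Cy5 exchanged, 14 arrays in all. In 1 pair DKO-R was set against DKO-S, both without DOX and from culture A, and in the other pairs a culture with DOX was set against the same culture without it. Spots that are not controls had a confidence of 0.30 or more for 55.1% to 72.1% of their number on 12 arrays. The remaining 2 arrays, both of DKO-S, kept 2.13% (culture A with DOX in Cy5) and 22.7% (culture B with DOX in Cy3) and are called the weak arrays. Bulk RNA was measured, so fewer expressing cells and less RNA per cell cannot be told apart.

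The 3 clones were not measured equally well. AP1B1 was printed in 4 spots, 2 in block 29 and 2 in block 21 of the 48 printed blocks. CD63 was printed in 2 spots of block 4 and 2 spots of block 17, under clone names that differ in the trailing f. CHMP7 was 1 of the 92 clones with a single spot, in block 33. On the 12 arrays that are not weak all 24 values of each AP1B1 and CD63 block had a confidence of 0.30 or more, against 3 of 12 values for CHMP7. In mean brightness over those arrays CD63 lay at the 86.5th percentile of all clones, AP1B1 at the 73.5th and CHMP7 at the 31.6th.

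With the lines taken as labelled, on the direct pair of arrays AP1B1 and CD63 changed direction when the dyes were exchanged. The log2 ratio of DKO-R over DKO-S of AP1B1 was 1.41 on the array that carried DKO-R in Cy5 and -1.08 on its dye swap. That of CD63 was 1.31 on the first of these arrays and -1.83 on its dye swap. With array medians subtracted and spots averaged, whichever line was labelled with Cy5 was thus the higher one, for both clones. Block 21 of AP1B1 alone did not follow this, with 0.84 for DKO-R in Cy5 and 0.13 on the dye swap. Averaged over the orientations the log2 ratio was 0.16 ± 0.26 for AP1B1 (SE, 95% interval -0.43 to 0.76, limma adjusted p = 0.918) and -0.26 ± 0.24 for CD63 (SE, interval -0.81 to 0.29, limma adjusted p = 0.822). A single pair of extracts stands behind these values, and their SE is taken from the pairs of the DOX arrays. Over all clones 0.137% of 5827 tested passed the threshold of 0.15 in this comparison, 8 clones, and neither AP1B1 nor CD63 was among them. Fits to 1 direct array alone take their SE from pairs averaged over both dyes. Their p-values do not measure the spread of an array without its dye swap, so no call is read from them.

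The same split by dye appeared on the DOX arrays. For AP1B1 the log2 ratio of DOX over no DOX in DKO-R was 0.59 and 0.12 in cultures A and B with DOX in Cy5, and -0.99 and -1.78 with DOX in Cy3. In DKO-S it was 1.54 and 0.80 with DOX in Cy5, and -1.75 and -2.24 with DOX in Cy3, where the value of 1.54 and that of -2.24 come from the weak arrays. In DT40 it was 0.69 and 0.49 with DOX in Cy5, and -0.44 and -0.42 with DOX in Cy3. Averaged over the spots kept, every AP1B1 ratio was above 0 with the DOX extract in Cy5 and below 0 with it in Cy3. Block 21 alone did not keep this split in DT40 and DKO-R. In cultures A and B of DT40 it read -0.11 and -0.03 with DOX in Cy5, and 0.50 and 0.72 with DOX in Cy3. In those of DKO-R it read -0.18 and -0.05 with DOX in Cy5, and -0.53 and -0.66 with DOX in Cy3. In DKO-S culture A block 21 kept the split, with 1.54 (weak array) and -0.31.

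CD63 followed suit. Its log2 ratio of DOX over no DOX in DKO-R was 0.87 and 0.06 in cultures A and B with DOX in Cy5, and -0.88 and -1.37 with DOX in Cy3. In DKO-S it was 1.69 in culture B with DOX in Cy5, and -2.50 and -2.15 with DOX in Cy3, the last on a weak array, and the other weak array gave no value. In DT40 it was 1.00 and 0.87 with DOX in Cy5, and -0.98 and -1.03 with DOX in Cy3. The orientations did not overlap in any line.

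**Figure D1:**
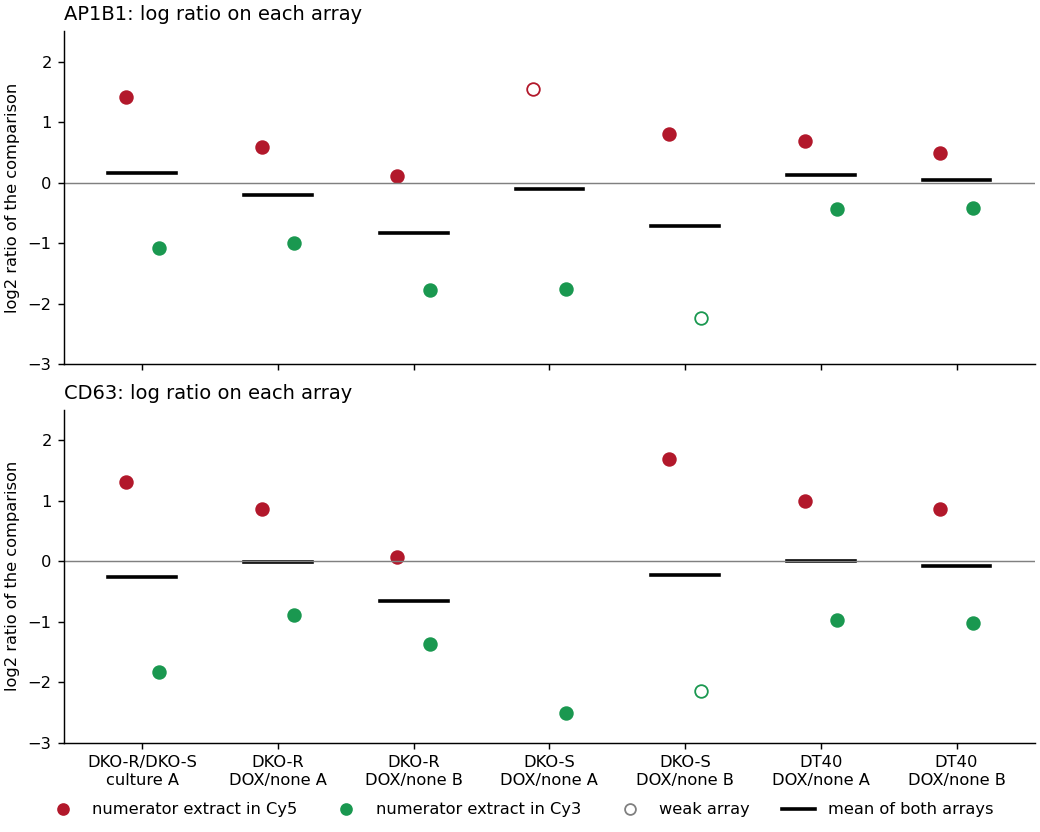
Log2 ratio of AP1B1 (top) and CD63 (bottom) on each array, averaged over the spots of the clone. Ratios are in the direction of the comparison named below, with the line or the treatment of the numerator before the slash. Red points have the numerator extract in Cy5 and green points in Cy3, open points lie on weak arrays, and black bars are the mean of both orientations. All red points lie above 0 and all green points below it, while the bars lie between -0.83 and 0.16.

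With both orientations averaged, no response of AP1B1 or CD63 to DOX passed the threshold of 0.05 in any line. The SE of a response comes from 1 spread for each clone, pooled over the lines and moderated by limma. For AP1B1 this spread includes the pairs with weak arrays. It is thus not the spread of the cultures named beside it. In DKO-R the AP1B1 response was -0.20 in culture A and -0.83 in culture B, a mean of -0.52 ± 0.19 (SE, n = 2 pairs, limma adjusted p = 0.617). In DKO-S it was -0.10 and -0.72, a mean of -0.41 ± 0.19 (SE, n = 2 pairs, limma adjusted p = 0.154), and each of these pairs includes a weak array. In DT40 it was 0.12 and 0.04, a mean of 0.08 ± 0.19 (SE, n = 2 pairs, limma adjusted p = 0.997). Both cultures of DKO-R and of DKO-S lay below both of DT40 in these averages, but not at each printed position. In block 21 the response of DKO-S culture A was 0.62, above the 0.19 and 0.34 of DT40, and in block 29 that of DKO-R culture A was -0.05, above the -0.27 of DT40 culture B. The DKO-S averages also combine unlike positions, since the weak array of each pair kept 1 AP1B1 spot against 4 on its dye swap. The response of DKO-R minus that of DT40 was -0.60 ± 0.26 (SE, interval -1.19 to 0.000922, limma adjusted p = 0.881). That of DKO-R minus that of DKO-S was -0.10 ± 0.26 (SE, interval -0.70 to 0.49, limma adjusted p = 0.819).

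For CD63 the response in DKO-R was -0.01 in culture A and -0.65 in culture B, a mean of -0.33 ± 0.17 (SE, n = 2 pairs, limma adjusted p = 0.651). In DKO-S only culture B gave a value, -0.23 ± 0.24 (SE, limma adjusted p = 0.530), and it includes a weak array. In DT40 the response was 0.01 and -0.08, a mean of -0.04 ± 0.17 (SE, n = 2 pairs, limma adjusted p = 0.997). Culture B of DKO-R had the lowest response for both clones, and culture A of DKO-R did not stand apart from DT40 for CD63. The response of DKO-R minus that of DT40 was -0.29 ± 0.24 (SE, interval -0.84 to 0.25, limma adjusted p = 0.899), and that of DKO-R minus that of DKO-S -0.10 ± 0.29 (SE, interval -0.77 to 0.57, limma adjusted p = 0.839). These differences share the DKO-R arrays.

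Few or no clones passed in these comparisons outside DKO-S. By limma 0% of 6492 clones were called for the DOX response of DKO-R, with 508 at an unadjusted p under 0.05, and 0% of 6492 for that of DT40, with 386. For the difference between these responses 0% of 6491 were called, with 314 at an unadjusted p under 0.05. For the DOX response of DKO-S 16.3% of 3151 were called, and for the response of DKO-R minus that of DKO-S 7.11% of 3150, both on pairs that include the weak arrays.

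The part of the signal that did not follow the extract can be measured as the mean log2(Cy5/Cy3) of both orientations, called the dye component. Subtracting each array's median sets it near 0 across clones, with a median of -0.01 on the direct pair. Before that step the medians of log2(Cy5/Cy3) were -0.99 and -1.28 on the direct arrays. On this pair 90% of 7238 clones lay between -0.49 and 0.67. For AP1B1 it was 1.24 on the direct pair, at the 97.8th percentile, and for CD63 1.57, at the 98.7th. Over the 4 DOX pairs of DKO-R and DT40 it averaged 0.69 ± 0.22 for AP1B1 (SD, n = 4), at the 98.1st percentile of 6484 clones, and 0.88 ± 0.12 for CD63 (SD, n = 4), at the 98.7th. The clones were thus among the most Cy5-leaning of the array in pairs without DKO-S as well as on the direct pair. They shared this with most of the study's list: of the 44 other listed clones, all measured on both direct arrays, 34 lay above the 95th percentile, with a median of 2.00.

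**Figure D2:**
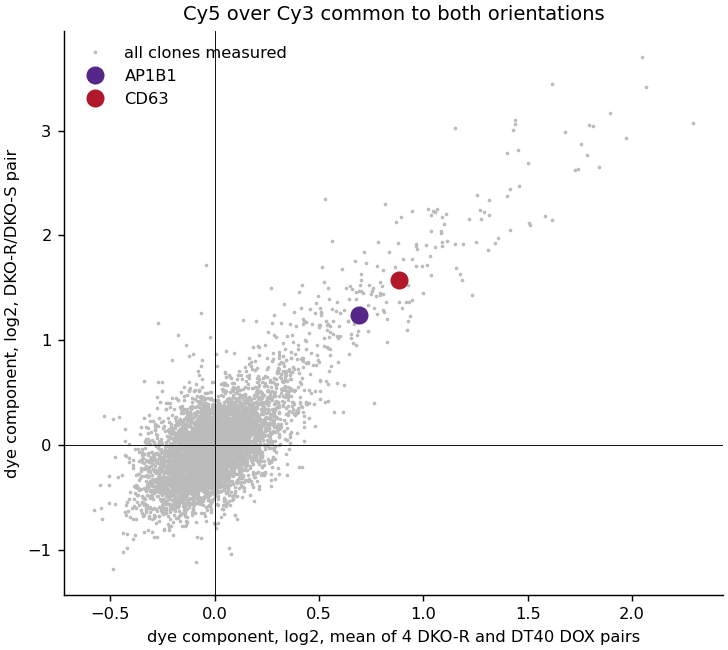
Dye component (mean log2(Cy5/Cy3) of both dye orientations) of each clone on the direct DKO-R/DKO-S pair (vertical axis) against its mean over the 4 DOX pairs of DKO-R and DT40 (horizontal axis). AP1B1 (0.69, 1.24) and CD63 (0.88, 1.57) lie along the tail of clones that, with array medians subtracted, were brighter in Cy5 on both axes.

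The dye component of the members also differed between the DOX pairs of the lines. Each of these pairs holds 1 line only, so a difference between lines and a difference between arrays cannot be told apart. For AP1B1 the DOX pairs of DKO-R gave 0.79 and 0.95, those of DKO-S 1.65 and 1.52, and those of DT40 0.57 and 0.45. For CD63 it was 0.87 and 0.72 in DKO-R, 1.92 in the measured pair of DKO-S, and 0.99 and 0.95 in DT40. The DKO-S values, highest for both clones, each include a weak array. The part of these arrays in the DKO-S values was not tested. For CD63 the order of DKO-R and DT40 depended on the printed position. In block 4 the dye component was 0.88 and 1.04 in DKO-R, and 1.60 and 1.60 in DT40. In block 17 it was 0.87 and 0.39 in DKO-R, and 0.38 and 0.29 in DT40.

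The printed positions of 1 clone did not give 1 value. Within a block the paired spots of AP1B1 differed by a median of 0.26 on the log2 scale and those of CD63 by 0.18. Between blocks log2(Cy5/Cy3) of AP1B1 was 1.64 ± 0.73 higher in block 29 than in block 21 (SD over 12 arrays), and for CD63 block 17 minus block 4 was -1.01 ± 0.75 (SD over 12 arrays). Over the 189 clones printed as paired spots in 2 blocks and measured in both on at least 6 arrays, the median absolute difference was 0.17. AP1B1 had the 5th largest and CD63 the 11th largest of these differences. The block 29 spots of AP1B1 were also brighter, with 1389 to 19934 units in Cy3 and 2312 to 20667 in Cy5 on the 12 arrays, against 676 to 4368 in Cy3 and 303 to 2335 in Cy5 in block 21.

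Most of the dye component of AP1B1 came from block 29. There it was 2.13 on the direct pair, 1.41 and 1.59 for DOX in DKO-R, 1.87 for DOX in DKO-S culture B, and 1.44 and 1.28 for DOX in DT40. In block 21 it was 0.36 on the direct pair, 0.18 and 0.31 for DOX in DKO-R, 0.93 for DOX in DKO-S culture A, and -0.31 and -0.37 for DOX in DT40. Each DKO-S value includes a weak array. The direct log2 ratio of DKO-R over DKO-S in block 21 was 0.84 with DKO-R labelled with Cy5 and 0.13 on the dye swap. On the array of the value of 0.84 the Cy5 intensities of both spots were 0.56 and 0.61 times the 95th percentile of the spots labelled Blank. That percentile was high on this array, at 2193 units against a Blank median of 149. At 1237 and 1334 units both spots lay above the Blank median and above the median of 717 of all spots that are not controls. In block 29 it was 1.97 and, on the dye swap, -2.29.

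Both positions of CD63 changed sign on the direct pair. The log2 ratio of DKO-R over DKO-S in block 4 was 2.16 with DKO-R labelled with Cy5 and -2.24 on the dye swap, an average of -0.04. In block 17 it was 0.46 and -1.42, an average of -0.48. The dye component of CD63 in block 4 was 2.20 on the direct pair, and 0.94 in block 17. On the array with DKO-R in Cy5 the paired spots of block 17 read -0.08 and 1.00, so that the value of 0.46 rests on spots that disagreed.

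**Figure D3:**
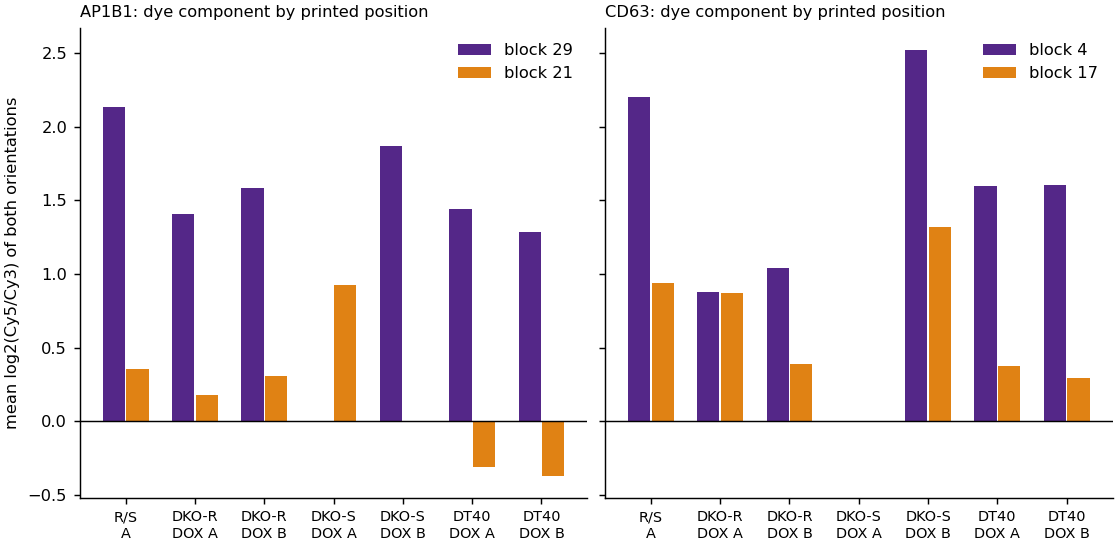
Dye component (mean log2(Cy5/Cy3) of both orientations) of AP1B1 (left) and CD63 (right) in each pair of extracts, by printed block. R/S is the direct pair, the other bars are DOX pairs, those of DKO-S include weak arrays, and a missing bar means that one orientation had no spot of confidence 0.30 or more. Block 29 of AP1B1 (1.28 to 2.13) stands above block 21 in every pair in which both were measured, and block 4 of CD63 stands at or above block 17.

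To compare levels between lines without the dye, extracts were set side by side on the arrays whose dyes match across the lines: culture A with DOX in Cy3 and no DOX in Cy5, and culture B with DOX in Cy5 and no DOX in Cy3. None of these 6 arrays is weak. They hold 1 channel of each of the 12 extracts, and the channels of 1 array are not independent. Each of these arrays holds 1 line only, so a difference between lines and a difference between arrays cannot be told apart. Levels are log2 normalised intensities.

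AP1B1 in block 29 was brighter in DKO-R than in DT40 in all 4 settings. With DOX its level was 12.35 (Cy3) and 13.42 (Cy5) in DKO-R, 11.07 and 12.83 in DKO-S, and 11.31 and 12.74 in DT40. Without DOX it was 13.31 (Cy3) and 13.77 (Cy5) in DKO-R, 11.39 and 14.21 in DKO-S, and 11.76 and 12.72 in DT40. DKO-R stood above DT40 by 0.68 to 1.56 and above DKO-S in 3 of 4 settings, by between -0.44 and 1.92. DKO-S stood above DT40 in 2 of 4 settings, so DKO-S and DT40 were not separated at this position.

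AP1B1 in block 21 gave another order. With DOX its level was 10.15 (Cy3) and 10.21 (Cy5) in DKO-R, 10.75 and 10.88 in DKO-S, and 10.14 and 10.43 in DT40. Without DOX it was 10.17 (Cy3) and 10.71 (Cy5) in DKO-R, 10.70 and 11.09 in DKO-S, and 10.40 and 9.67 in DT40. DKO-R was below DKO-S in all 4 settings, by -0.66 to -0.37, and DKO-S was above DT40 in all 4, by 0.30 to 1.42. DKO-R and DT40 were not separated on these arrays, with DKO-R higher in 2 of 4. Some of these channels lay near or under the 95th percentile of the Blank spots. In DKO-R culture A with DOX the 2 spots read 0.87 and 0.84 times that percentile, which was 1806 units there against a Blank median of 110. In DT40 culture A without DOX, the setting of the difference of 1.42, they read 1.03 and 0.93 times. The order of DKO-R and DKO-S also turned with the set of arrays, since block 21 averaged 0.49 for DKO-R over DKO-S on the direct pair. The line that was highest in AP1B1 thus depended on the printed position and on the arrays read.

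For CD63 the order of DKO-R and DKO-S turned with the dye at both positions. In block 4 the level with DOX was 11.48 (Cy3) and 12.42 (Cy5) in DKO-R, 10.84 and 13.52 in DKO-S, and 11.18 and 12.95 in DT40. Without DOX it was 12.28 (Cy3) and 12.57 (Cy5) in DKO-R, 11.09 and 14.11 in DKO-S, and 11.63 and 13.21 in DT40. DKO-R was higher than DKO-S in Cy3, by 0.64 and 1.19, and lower in Cy5, by -1.54 and -1.10. In block 17 the difference was 0.17 and 0.78 in Cy3, and -0.84 and -0.16 in Cy5.

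Against DT40, CD63 in block 17 was higher in DKO-R in 3 of 4 settings (-0.14 to 1.52) and higher in DKO-S in 3 of 4 (-0.31 to 1.36). In block 4 each of these lines was higher in 2 of 4 settings (-0.64 to 0.65 for DKO-R, -0.54 to 0.90 for DKO-S). No order of the 3 lines held for CD63 across dyes and positions.

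**Figure D4:**
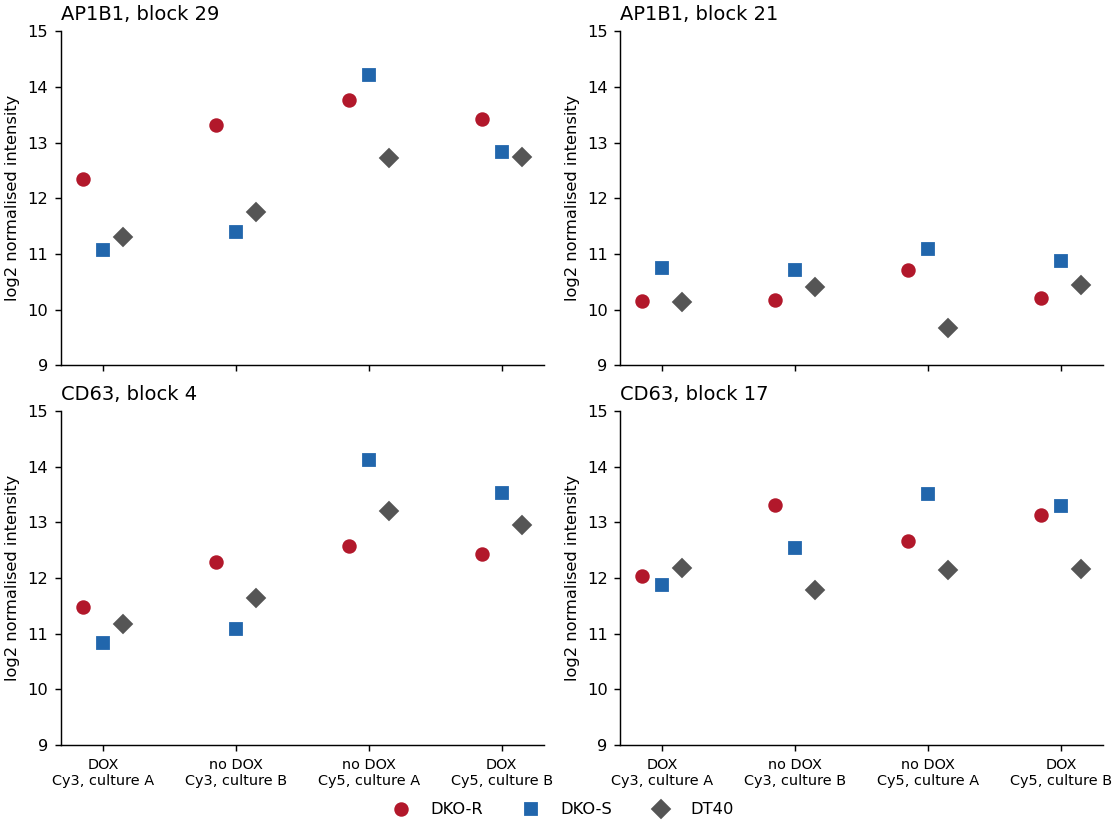
Log2 normalised intensity of AP1B1 (top, blocks 29 and 21) and CD63 (bottom, blocks 4 and 17) in DKO-R (red circles), DKO-S (blue squares) and DT40 (grey diamonds), 1 channel for each extract on the 6 arrays whose dyes match across the lines. DKO-R lies above DT40 in all 4 columns for block 29 of AP1B1, DKO-S lies above DKO-R in all 4 for block 21, and for CD63 DKO-R lies above DKO-S in Cy3 and below it in Cy5.

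With positions, dyes and all arrays averaged, AP1B1 and CD63 passed the threshold of 0.15 in 3 comparisons between lines, and none of them passed on the matched arrays, where 1.18% to 14.9% of 6423 clones were called. Without DOX the log2 difference of DKO-R from DT40 was 0.84 ± 0.29 for AP1B1 (SE, limma adjusted p = 0.0658) and 0.71 ± 0.22 for CD63 (SE, limma adjusted p = 0.0518), in a comparison in which 32.5% of 8077 clones were called. On the matched arrays, fitted with a dye term, it was 0.85 ± 0.35 for AP1B1 (SE, limma adjusted p = 0.181) and 0.51 ± 0.48 for CD63 (SE, limma adjusted p = 0.566). Neither clone passed when culture B of DKO-R or either culture of DT40 was left out (0.70 to 0.90 for AP1B1, 0.39 to 0.76 for CD63). Over all arrays each printed position of AP1B1 passed by itself, at 0.54 in block 21 and 1.15 in block 29 (limma adjusted p = 0.0627 and 0.0277). DT40 shares no array with the other lines, so a difference from DT40 and a difference between sets of arrays cannot be told apart.

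The difference of DKO-S from DT40 without DOX was 1.67 ± 0.29 for AP1B1 (SE, limma adjusted p = 0.00633) and 0.92 ± 0.22 for CD63 (SE, limma adjusted p = 0.0217), where 32.3% of 7302 clones were called. On the matched arrays it was 0.71 ± 0.35 for AP1B1 (SE, limma adjusted p = 0.287) and 0.61 ± 0.48 for CD63 (SE, limma adjusted p = 0.510). With all arrays but the weak ones, which leaves culture A alone for DKO-S without DOX, the difference still passed, at 0.71 for AP1B1 (limma adjusted p = 0.0890) and 0.89 for CD63 (limma adjusted p = 0.0712). At a confidence minimum of 0.60 AP1B1 no longer passed, with a difference of 0.017. That minimum again leaves culture A alone for DKO-S without DOX, and it sets unlike positions against each other. Every block 21 spot of DT40 fell under it (confidence 0.40 to 0.59), so DT40 was read from the brighter block 29 alone. Block 21 spots of DKO-S partly stayed, with a confidence of up to 0.76. CD63 no longer passed when culture B of DT40 was left out (0.87, limma adjusted p = 0.151). Of AP1B1 each weak array kept 1 of 4 spots, of block 21 in culture A and of block 29 in culture B. The channels of these arrays read 15.24 and 12.28 with DOX and 13.95 and 14.23 without it, against 10.56 to 12.30 in the other DKO-S channels. Part of the AP1B1 level of DKO-S thus came from single spots of these arrays.

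Between DKO-R and DKO-S without DOX the separate channels gave -0.83 ± 0.29 for AP1B1 (SE, limma adjusted p = 0.380) and -0.22 ± 0.22 for CD63 (SE, limma adjusted p = 0.760), where 0.145% of 7579 clones were called. Without the weak arrays the AP1B1 difference was 0.15 (limma adjusted p = 0.912), with culture A alone for DKO-S. With DOX the AP1B1 difference was -1.45 ± 0.29 (SE, limma adjusted p = 0.00623), repression itself not being checked on the arrays. For CD63 it was -0.59, in a comparison in which 36.1% of 3501 clones were called. The CD63 value also passed, but it rests on 1 DKO-S extract with DOX, that of culture B, which includes a weak array. With DOX these lines share no array, so a difference between them and a difference between sets of arrays cannot be told apart. On the matched arrays these differences with DOX were 0.15 ± 0.35 and -0.11 ± 0.48 (SE, limma adjusted p = 0.918 and 0.961), so the sign for AP1B1 turned with the arrays used. Leaving out culture A of DKO-S gave AP1B1 -0.95 and leaving out its culture B -1.95, while CD63 no longer passed without culture A of DKO-R, culture A of DKO-S or either culture of DT40 (-0.59 to -0.52). The labels of the direct arrays and the DOX arrays did not give 1 direction either: for 28 clones that differed at least 2-fold on average and in the same direction on both direct arrays, the matched DOX arrays offered 106 comparisons of the lines within a dye, and 97 went the opposite way. Whether the lines are exchanged in the labels of 1 set of arrays was not tested. If they were exchanged on the direct arrays, the direct values of AP1B1 and CD63, those of block 21 included, would turn sign, and the separate-channel values of DKO-R and DKO-S without DOX pool both sets.

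CHMP7 could not be followed across the lines. Its spot had a confidence of 0.30 or more on 3 of 14 arrays, both arrays of DT40 culture A (0.51 and 0.50) and the array of DKO-R culture B with DOX in Cy3 (0.32). The log2 ratio of DOX over no DOX was 0.45 with DOX in Cy3 and 0.01 with DOX in Cy5 in DT40 culture A, a mean of 0.23, and -0.09 in DKO-R culture B. No test was possible at this confidence minimum. On the direct pair the confidence was 0.29 for DKO-R labelled with Cy5 and 0.06 on the dye swap. The log2 ratio of DKO-R over DKO-S on these arrays was 1.66 and 1.44. It thus kept its direction, unlike the averages of AP1B1 and CD63, but neither value reached a confidence of 0.30.

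The intensity of the CHMP7 spot was set against the 78 spots labelled Blank. With both arrays of a pair at hand it exceeded the 95th percentile of the Blank spots in both dyes in cultures A and B of DT40 (1.02 to 5.71 times) and in culture B of DKO-R (2.09 to 3.84 times). On the DOX arrays of DKO-R culture A it was 0.33 to 0.42 times that percentile in 3 of 4 channels and just above it in Cy3 of the array with DOX in Cy5. On the DOX arrays of DKO-S it was 1.77 to 2.75 times for culture A with DOX in Cy3 and under it in both dyes on the other 3 arrays, of which 2 are weak. On the direct pair it was 1.15 times for DKO-R in Cy5 and 1.82 times for DKO-S in Cy3 on the same array, and under it in both dyes on the dye swap. Over the 12 arrays that are not weak it exceeded the Blank percentile on 9 in Cy3 and 8 in Cy5, so the level of CHMP7 lay close to what these arrays could detect. The percentile itself ran from 113 to 1806 units in Cy3 and from 189 to 2193 in Cy5. It was highest in Cy3 for DKO-R culture A with DOX in Cy3, where CHMP7 read 596 units against a Blank median of 110. The order of the lines in these multiples thus also depends on the Blank spots of each array.

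**Figure D5:**
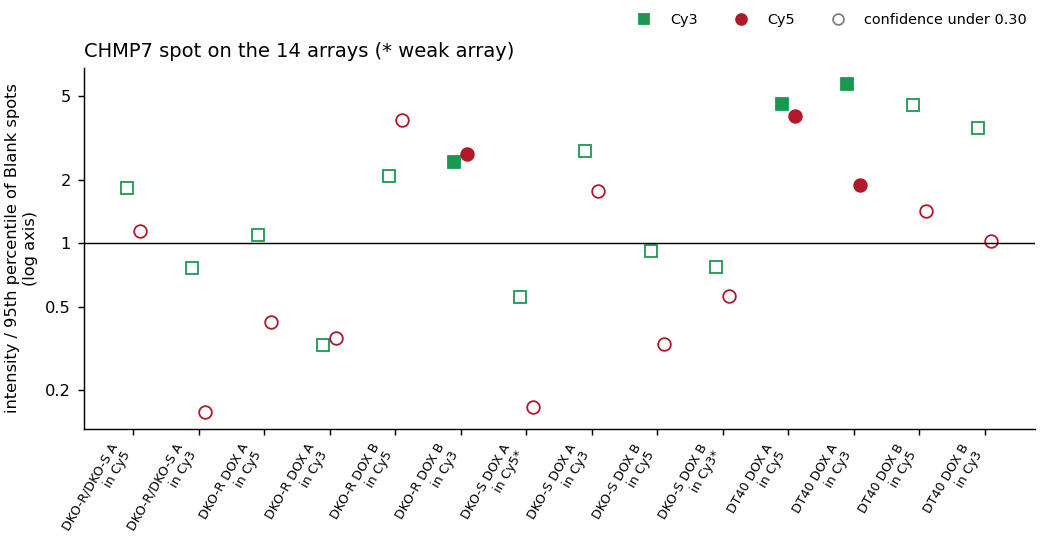
Intensity of the single CHMP7 spot divided by the 95th percentile of the Blank spots of the same array and dye (log axis, line at 1), for each array named by its comparison, culture and the dye of the numerator extract. Filled symbols have a confidence of 0.30 or more, open symbols less, and arrays with an asterisk are weak. The filled symbols are on 3 arrays, and the values of DT40 lie above the line in both dyes on all 4 arrays. The Blank percentile differs between arrays.

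Across the extracts AP1B1 and CD63 varied together, with Pearson's r = 0.92 over the 11 extracts in which both were measured and 0.91 over 9 without the weak arrays. CD63 was the listed clone closest to AP1B1, followed by that of LMO2, a transcription regulator, with r = 0.91 over 12 extracts and 0.80 over 9 without the weak arrays. Among all 6887 clones compared they ranked only 28th and 37th. Closest to CD63 among the listed clones were CD274, an immune checkpoint ligand, with r = 0.94 over 11 extracts, and the chemokine CCL17 with r = 0.93 over 11, ranked 9th and 15th of 6836 clones. Over the whole array the closest clones had no gene name, ChEST964J8 for AP1B1 (r = 0.98 over 10 extracts) and pat.pk0064.c6 for CD63 (r = 0.96 over 11). These correlations are descriptions over few extracts that share arrays, dyes and the difference between sets of arrays. CHMP7 was measured in too few extracts.

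The study's list names 3 more clones of secretory and endosomal trafficking: SRP54, which binds signal sequences of nascent proteins, CKAP4, a membrane protein of the endoplasmic reticulum sheets, and the a3 subunit of the vacuolar ATPase, which acidifies endosomes and lysosomes. SRP54 had too few pairs for a test of its log ratios, and CKAP4 and the a3 subunit did not pass in the direct comparison or in the DOX response of any line. Without DOX the a3 subunit was higher in DKO-R than in DT40 by 0.47 ± 0.20 (SE, limma adjusted p = 0.138), where 32.5% of all clones were called. In DKO-S it was higher than in DT40 by 0.57 ± 0.20 (SE, limma adjusted p = 0.0848), and CKAP4 by 0.58 ± 0.23 (SE, limma adjusted p = 0.109). Of all clones 32.3% were called in the comparison of DKO-S with DT40. DT40 shares no array with the other lines. With DOX the log2 differences of DKO-R from DKO-S were -1.07 for SRP54, -0.86 for CKAP4 and -0.68 for the a3 subunit. In that comparison 36.1% of all clones were called. For each of these 3 clones the only DKO-S extract with DOX is that of culture B, which includes a weak array. These lines share no array with DOX.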

How the data were processed

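RNA of DKO-R, DKO-S and DT40 cells was hybridised by the authors to 2-colour EST arrays. The authors deposited the spot intensity in each channel, without normalisation, and a spot confidence as a fraction, both from BlueFuse for Microarrays (version 1.1, build 2765). The authors also deposited a table of log2 values of Cy5 over Cy3 for 12861 positions, which was used as an alternative only. The dye of each channel was taken from the labels. Gene names come from the study's list of clones, all 47 of which were found. The members, lists and tests were chosen with earlier results of these data known. The named clones are the members, 3 further trafficking clones of the list and, for AP1B1 and CD63, the 2 listed clones and the 1 clone of the array with the highest correlation over at least 8 extracts. Lists of other clathrin, adaptor, ESCRT and lysosome genes and of cell type markers were not used, since no further clones are named here.

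Spots with a confidence of at least 0.30 entered the log ratios. Each array's log2(Cy5/Cy3) had its median subtracted, and the mean was taken over spots of a clone and then over both orientations of a pair. limma 3.58.1 (R 4.3.3; lmFit and eBayes) fitted 4 comparisons to 7 pairs with 3 residual and 6.27 prior degrees of freedom, and clones with at least 2 residual degrees were tested. For separate channels, loess (span 0.3) and Aquantile were applied, the mean level of an extract was taken over both dyes, and 6 groups were fitted to 12 extracts with 6 residual and 4.91 prior degrees of freedom. After Benjamini-Hochberg adjustment over all clones tested, p-values under 0.15 passed between lines and those under 0.05 for DOX responses. The comparison on matched dyes and the values by printed position were added after the data had been seen, and the matched arrays were normalised without the weak arrays. The fits were tested on simulated data. The labels call cultures A and B biological replicates, and p-values measure only the spread between these samples. The number of arrays limits the precision. No sample was left out.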

Additional observations from a re-analysis of the deposited data

Results flagged for a closer look

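The AP1B1 response to DOX lay on opposite sides of 0 in both cultures of DKO-R (-0.20 and -0.83) and in both of DT40 (0.12 and 0.04), a difference of -0.60 that did not pass the test of the difference itself (limma adjusted p = 0.881). The same held for DKO-S (-0.10 and -0.72) against DT40, a difference of -0.49 (limma, unadjusted p = 0.0958, adjusted p = 0.255, 188 of 3150 clones called), and each DKO-S value includes a weak array. The value of -0.10 sets 4 spots in one dye against a single spot of block 21 in the other, and block 21 alone gave 0.62 for that culture.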

How the results depend on the processing

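The 20 fitted differences of AP1B1 and CD63 were recomputed 323 times. Outside the fits that leave out a culture, 200 of 206 gave a test, of which 150 kept their direction and side of the threshold, 26 changed direction, 19 no longer passed and 9 passed where they had not. Of those that changed direction 2 also lost and 2 also gained a pass. Passes gained with 1 direct array alone rest on the SE of pairs averaged over both dyes, which does not measure the spread of such an array. The cause was not tested unless stated. Direct arrays: AP1B1 was -0.24 at a confidence of 0.60, and with each array alone -1.08 (DKO-R in Cy3) or 1.41 (DKO-R in Cy5), and CD63 -1.83 or 1.31. On matched channels, DKO-R over DKO-S in AP1B1 was 0.15 with DOX and 0.14 without, from DT40 0.85 for DKO-R and 0.71 for DKO-S, and in CD63 -0.11 with DOX, from DT40 0.51 and 0.61, none passing. Block 29 alone gave AP1B1 -0.16 on the direct arrays, -0.11 for DOX in DT40, and 0.22 without and -0.24 with DOX for DKO-R over DKO-S in separate channels. Block 21 alone gave AP1B1 0.62 for DOX in DKO-S and -0.97 for DKO-R minus DKO-S, which passed. Both rest on culture A alone for DKO-S. The weak array of that pair kept 1 block 21 spot, which read 1.54 at a confidence of 0.48, while the paired spot read -2.79 at 0.21. Block 17 alone gave CD63 0.26 for DOX in DT40, 0.32 for DKO-R minus DKO-S and -0.0073 for DKO-R over DKO-S with DOX.

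Centring by printed block gave AP1B1 -0.54 for DOX in DKO-S, which passed (limma adjusted p = 0.0295), -0.10 for DT40 and 0.11 for DKO-R minus DKO-S, where CD63 was 0.0094. At a confidence of 0.60 AP1B1 was -0.11 for DOX in DT40 and, in separate channels without DOX, 0.39 for DKO-R over DKO-S, 0.41 for DKO-R over DT40 and 0.017 for DKO-S over DT40, both differences from DT40 no longer passing. The deposited log2 table, which holds 1 position for AP1B1 and does not say how spots were combined, gave AP1B1 0.23 for DOX in DKO-S and -0.20 in DT40, and CD63 -1.24 for DOX in DKO-S, which passed, and 0.80 for DKO-R minus DKO-S. With no confidence filter CD63 was -1.35 for DOX in DKO-S, which passed, 1.01 for DKO-R minus DKO-S (AP1B1 0.13), -0.082 for DKO-R over DKO-S with DOX and 0.71 for DKO-R over DT40, the last 2 not passing. A dye term on each array gave CD63 0.20 for DKO-R minus DKO-S. Median centring of channels gave CD63 0.28 with and 0.18 without DOX for DKO-R over DKO-S and 0.52 and 0.34 for DKO-R and DKO-S over DT40, and AP1B1 -0.53 for DKO-R over DKO-S with DOX and 0.71 for DKO-R over DT40, none passing. Without the direct arrays AP1B1 passed at -1.33 for DKO-R over DKO-S without DOX and CD63 at -0.59 with DOX no longer passed. Without the weak arrays AP1B1 was 0.15 for DKO-R over DKO-S without DOX, and no comparison of DKO-S with DOX could be fitted with both dyes.

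Culture letters did not pair the lines: the differences of culture A from B correlated between lines at -0.15 to 0.17. With the letter as a replicate block AP1B1 was -0.058 on the direct arrays, CD63 was -0.53 for DKO-R over DKO-S with DOX, no longer passing, and in the other 12 of 14 fits that gave a test the block changed no call or direction. The 6 log-ratio results of CD63 could not be tested with it. Leaving out each culture in turn, 93 of 117 fits gave a test, of which 78 kept direction and side. The other 24, all of CD63 log ratios, could not be tested, and 3 of them changed direction. For DOX in DT40 CD63 ranged from -0.080 to 0.010, for DKO-R minus DT40 from -0.62 to 0.028 and for DKO-R minus DKO-S from -0.42 to 0.22 (AP1B1 -0.42 to 0.21). In separate channels without DOX, DKO-R over DKO-S ranged from -0.97 to -0.68 in AP1B1, which passed without DKO-S culture A, and from -0.54 to 0.11 in CD63. DKO-R over DT40 ranged from 0.70 to 0.99 in AP1B1 and from 0.39 to 1.03 in CD63, not passing without DKO-R culture B or either DT40 culture. DKO-S over DT40 ranged from 0.87 to 0.97 in CD63, not passing without DT40 culture B. DKO-R over DKO-S with DOX ranged from -0.66 to -0.52 in CD63, with culture B alone for DKO-S with DOX. It did not pass without DKO-R culture A, DKO-S culture A or either DT40 culture. From its spot CHMP7 could be fitted only with no confidence filter, and 3 differences passed there. These were 0.68 for DOX in DKO-S (limma adjusted p = 0.0477), -1.71 for DKO-S over DT40 without DOX (0.0786) and 1.61 for DKO-R over DKO-S with DOX (0.132). With the filter 16.3%, 32.3% and 36.1% of clones were called in these comparisons, and the share without it is not given here. The 3 CHMP7 differences include the weak arrays and rest mostly on spots of confidence under 0.30. The direct value of CHMP7 was 1.55 (limma adjusted p = 0.9998).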
